A study of Mus musculus with 2 samples.

Results

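The genes described here are those of the synaptic vesicle cycle and its membrane fusion machinery: synaptotagmins, syntaxins, VAMP and SNAP proteins, complexins, syntaxin-binding proteins, synapsins, SV2 proteins, Rab3 proteins, synaptophysin, synaptoporin and the active zone scaffolds RIM, bassoon and piccolo. They were chosen by gene symbol alone, from every probe set that the platform annotation gives to exactly 1 gene. This gave 68 of the 18193 genes measured, by 164 of 45037 probe sets. The measured tissue was the retina of a Sox11-/- mouse embryo and of a wild-type littermate, both C57BL/6 at embryonic day 18, with 1 retina and 1 array per genotype. Sox11 belongs to the SoxC transcription factors of differentiating neurons. The labels call the mutation loss-of-function and name neither the deleted part of the gene nor a Cre driver. There is no replicate of either genotype, so the values below compare 2 arrays and carry neither error nor test.

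Transmitter is released when a vesicle SNARE of the VAMP family zips together with syntaxin and SNAP-25 on the plasma membrane and pulls both membranes into contact. Synaptotagmins sense calcium and trigger this step, complexins hold the assembled SNAREs ready, and Munc18 proteins of the Stxbp family guide syntaxin. RIM, bassoon and piccolo place vesicles at the release site. Other syntaxins and VAMPs serve traffic between organelles in all cells. In the retina, amacrine cells release transmitter at conventional synapses, while photoreceptors and bipolar cells use ribbon synapses, which carry syntaxin 3 and complexins 3 and 4 in place of syntaxin 1 and complexins 1 and 2. At embryonic day 18 of the mouse, most of these synapses have yet to form.

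Sox11 itself was read by 6 probe sets, of which 5 were lower in the knockout. The brightest read 252.4 in the knockout and 3205.7 in the wild type, and the exception read 701.7 and 328.8. A probe set outside the deleted part checks nothing about the genotype. Markers of neural retina were present on both arrays, such as Pax6 at 2085.8 in the knockout and 2160.9 in the wild type. All intensities are on the linear scale of the deposited table, and log2 ratios are knockout minus wild type of log2(intensity + 5). Sex-linked transcripts were unlike as well, with Xist at 922.7 in the knockout and 12.3 in the wild type and Eif2s3y, a Y-linked gene, at 4.7 and 214.0. By these readings the knockout was female and the wild type male, so differences by sex and by genotype cannot be told apart.

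The synaptic vesicle and SNARE genes were nearly level between the genotypes. Of the 68, 57 passed a low-value filter, set at the pooled median intensity of 18.6 and applied to the brighter array, and all 57 reached it on both arrays. No gene was 2-fold apart in either direction, where 0.961% of all 11553 genes past the filter were 2-fold higher and 0.407% were 2-fold lower. At 1.5-fold, 0 genes were higher and 1, Syt16, was lower, where 3.81% and 2.17% of all genes were. Within 1.2-fold lay 40 of the 57 genes (70.2%), beside 73% of all genes. The ratio was below 0 for 32 of the 57 genes and above 0 for 25, where 52.1% of all genes were below 0 and 47.7% above. Their median log2 ratio was -0.05, beside -0.01 over all genes, and their 25th to 75th percentiles ran from -0.17 to 0.13, beside -0.16 to 0.15. These shares are near those of all genes on the array, or below them.

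**Figure D1:**
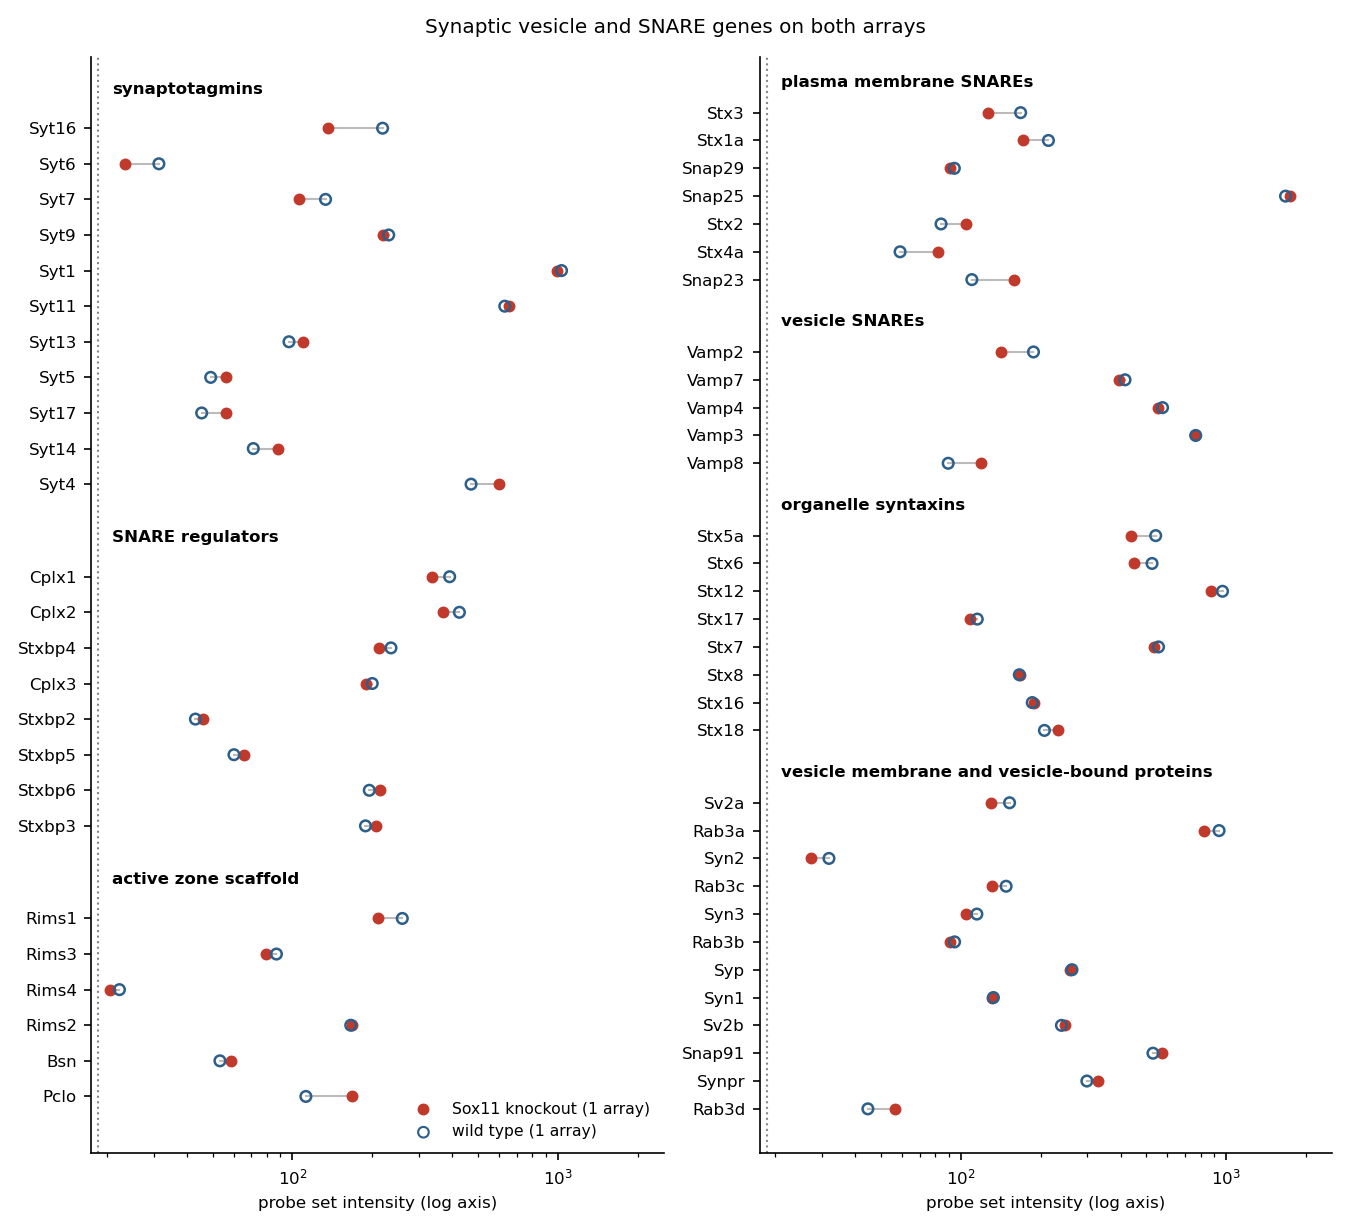
Intensity of each of the 57 genes past the filter, on a log axis, in the Sox11 knockout retina (filled red) and the wild-type retina (open blue), 1 array each. The dotted line is the filter at 18.6, and rows are ordered by log2 ratio within each role. Most pairs of points touch or nearly touch, and Syt16 has the widest gap.

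To show what lies at the start of the genes furthest apart, RefSeq promoter windows of build GRCm38.p6 are given for Syt16 and Stx3, the 2 lowest, and for Pclo and Snap23, the 2 highest, among genes past the filter whose window can be shown. Each runs from 250 bases before to 50 bases after the annotated start, on the strand of the gene. Capitals mark AACAAT or ACAAAG on either strand, which are forms of the short motif bound by the DNA-binding domain of Sox proteins.
Syt16, chr12:73997527-73997826, plus strand: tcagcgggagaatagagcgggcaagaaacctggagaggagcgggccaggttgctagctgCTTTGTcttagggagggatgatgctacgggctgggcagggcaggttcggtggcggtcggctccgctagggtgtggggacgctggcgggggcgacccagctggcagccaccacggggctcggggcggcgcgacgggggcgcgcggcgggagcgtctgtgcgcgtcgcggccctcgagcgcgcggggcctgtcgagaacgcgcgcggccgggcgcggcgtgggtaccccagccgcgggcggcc
Stx3, chr19:11819354-11819653, minus strand: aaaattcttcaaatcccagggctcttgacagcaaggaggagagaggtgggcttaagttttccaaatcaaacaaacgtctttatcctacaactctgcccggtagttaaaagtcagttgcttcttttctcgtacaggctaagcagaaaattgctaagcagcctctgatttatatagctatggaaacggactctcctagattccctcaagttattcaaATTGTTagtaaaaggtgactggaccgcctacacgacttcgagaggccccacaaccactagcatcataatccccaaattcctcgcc
Pclo, chr5:14514668-14514967, plus strand: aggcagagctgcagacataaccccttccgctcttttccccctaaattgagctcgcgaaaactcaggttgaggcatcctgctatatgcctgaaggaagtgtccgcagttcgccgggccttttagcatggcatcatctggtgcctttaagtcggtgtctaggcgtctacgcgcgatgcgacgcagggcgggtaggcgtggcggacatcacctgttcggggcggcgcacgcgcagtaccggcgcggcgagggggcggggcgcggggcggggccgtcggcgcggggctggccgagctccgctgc
Snap23, chr2:120567421-120567720, plus strand: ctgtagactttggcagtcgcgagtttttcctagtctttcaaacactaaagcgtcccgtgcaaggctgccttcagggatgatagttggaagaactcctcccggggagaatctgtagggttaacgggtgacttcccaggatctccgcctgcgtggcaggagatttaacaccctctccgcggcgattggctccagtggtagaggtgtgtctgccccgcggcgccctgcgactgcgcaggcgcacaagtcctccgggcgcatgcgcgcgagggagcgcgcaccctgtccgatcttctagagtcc
Syt16 holds ACAAAG, Stx3 holds AACAAT, and Pclo and Snap23 hold neither within this window. Of other genes past the filter, Vamp8 at a log2 ratio of 0.40 and Syt6 at -0.35 hold ACAAAG in a window. Stx4a at 0.44 and Stx1a at -0.30 hold neither motif. A link between motif and direction was not tested. Windows were found for 54 of the 68 genes, 71 in all since some genes have several starts. Either motif was present in 12 of the 71 windows (16.9%), beside 18.5% of 12156 windows of genes past the filter and 27.0% of all 32851 windows. Both motifs contain ACAA, but a single ACAA cannot belong to both, since the letters after it differ. The median GC content was 62.3% in these windows, 61.3% in windows of genes past the filter and 52.7% in all windows. A match is a description of the letters and does not show binding.

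The plasma membrane SNAREs lay on both sides of 0, 4 of the 7 past the filter above it and 3 below. Snap25, the neuronal SNARE that pairs with syntaxin 1, read 1744.5 in the knockout and 1671.2 in the wild type, a log2 ratio of 0.06. Its other probe set gave -0.20, so no direction holds for it. Stx1a, the syntaxin of conventional synapses, read 172.2 in the knockout and 213.9 in the wild type, a log2 ratio of -0.30, and its other probe set also lay below 0, at -0.17. Stx3, the syntaxin of ribbon synapses, read 126.5 in the knockout and 168.1 in the wild type. That log2 ratio of -0.40 held for the probe set that stands for the gene, while the other 3 lay between -0.01 and 0.12.

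Snap23, Stx4a and Vamp8 had the highest ratios among the SNARE genes. Snap23, the widely expressed relative of Snap25, read 158.6 in the knockout and 110.1 in the wild type, a log2 ratio of 0.51, and its 3 probe sets were all higher, between 0.14 and 0.51. Stx4a, which serves secretion and insertion of membrane proteins in many cell types, read 82.2 in the knockout and 59.1 in the wild type, a log2 ratio of 0.44. Vamp8, a vesicle SNARE of secretory cells and late endosomes, read 119.7 in the knockout and 89.7 in the wild type, a log2 ratio of 0.40. These 3 genes and Stx2, at 0.30, were each between 1.25 and 1.44 times as bright in the knockout, short of 1.5-fold, and all but Snap23 rest on 1 probe set. They are the high end of a mixed group. By the probe sets that stand for them, 10 of the 19 passing SNARE and Stxbp genes of general traffic were below 0. Among these were Snap29 at -0.05, Vamp3 at -0.01 and Vamp7 at -0.07, each of which also has a probe set above 0. Lists of periocular mesenchyme, macrophage and microglia, lens and pigment epithelium genes summed higher on the knockout array. The periocular mesenchyme list, of which 7 of 10 genes passed and 6 of these only by their knockout value, summed to 625.9 in the knockout and 86.8 in the wild type, with Foxc2, Twist1 and Prrx1 below the filter on both arrays. The macrophage and microglia list, of which 10 of 12 passed and 2 of these only by their knockout value, summed to 956.6 in the knockout and 465.4 in the wild type. The lens list summed to 619.0 in the knockout and 389.8 in the wild type. Of its 11 genes 8 passed, 4 of these on 1 array only, and 2 of the 8 were lower in the knockout. The pigment epithelium list summed to 423.8 in the knockout and 286.4 in the wild type. Of its 8 genes 6 passed, 2 of these only by their knockout value. The endothelium list summed lower, to 679.8 in the knockout and 853.0 in the wild type, through 1 gene, Kdr. Kdr read 456.1 in the knockout and 673.2 in the wild type, a larger drop than that of the whole sum. Of the 8 genes of this list 3 passed, and the 2 besides Kdr, Cldn5 and Esam, were higher in the knockout. The lower sum therefore does not show that endothelium genes were lower as a group. The part of these lists in the values of Snap23, Stx4a, Vamp8 and Stx2 was not tested. In whole retinas, fewer cells of a type and less RNA per cell cannot be told apart.

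Among the vesicle SNAREs, Vamp2, the main VAMP of brain synapses, read 142.3 in the knockout and 187.9 in the wild type, a log2 ratio of -0.39. Its second probe set read 107.8 in the knockout and 81.0 in the wild type, a log2 ratio of 0.39, so the 2 probe sets oppose each other by the same amount. Vamp3, Vamp4 and Vamp7, which serve endosomes, the trans-Golgi network and lysosomes, had log2 ratios of -0.01, -0.06 and -0.07. Here too the probe sets disagreed, from -0.22 to 0.49 over the 5 of Vamp3, of which 3 were at 0.36 or above, from -0.25 to 0.16 over the 3 of Vamp4, and with a second one at 0.29 for Vamp7. Vamp1, the VAMP of spinal and motor synapses, read 12.7 in the knockout and 15.1 in the wild type and did not reach the filter.

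**Figure D2:**
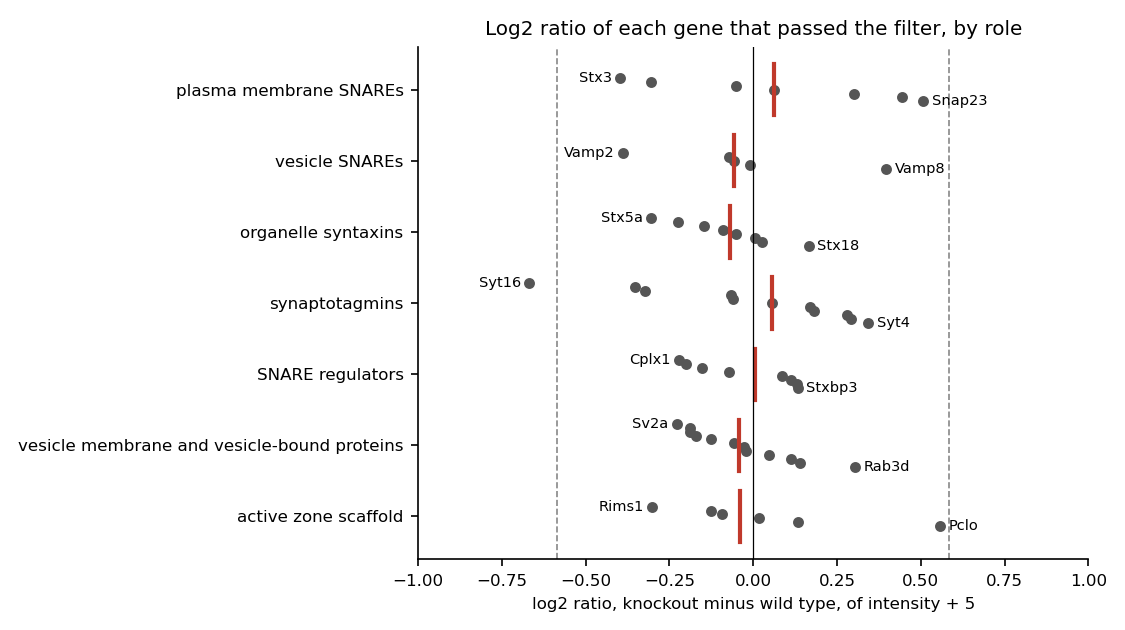
Log2 ratio, knockout minus wild type, of each gene past the filter (dots), by role, with the median of each role (red bar); dashed lines mark 1.5-fold, and the gene at each end is named. Role medians lie between -0.07 and 0.06, and Syt16 is the one dot beyond a dashed line.

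By the probe sets that stand for them, all 8 regulators of SNARE assembly past the filter lay within 1.2-fold, with ratios from -0.22 to 0.13. Cplx1, which clamps and promotes fusion at conventional synapses, read 334.3 in the knockout and 390.7 in the wild type, and its 3 probe sets were all lower, between -0.31 and -0.17. Its close relative Cplx2 read 369.0 in the knockout and 425.1 in the wild type, a log2 ratio of -0.20, but its probe sets reached 0.17. Cplx3, the complexin of ribbon synapses and some amacrine cells, read 189.8 in the knockout and 199.7 in the wild type. The other ribbon complexin, Cplx4, read 16.0 in the knockout and 12.1 in the wild type, the nearest gene below the filter. The Stxbp genes past the filter, Stxbp2 to Stxbp6, had ratios from -0.15 for Stxbp4, a syntaxin 4 partner known from insulin-responsive traffic, to 0.13 for Stxbp3, the Munc18 protein that pairs with syntaxin 4. Stxbp2, the Munc18 protein of epithelial and blood cell secretion, had 0.08 by the probe set that stands for it, while its other probe sets gave 0.45 and 0.48. Stxbp5, tomosyn, which occupies syntaxin in place of VAMP, had 0.11, with probe sets down to -0.49. The second passing probe set of Stxbp4 gave 0.18, and that of Stxbp6 gave 0.38.

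The calcium sensors of fast release were level by the probe sets that stand for them, and Syt16 stood apart from the other synaptotagmins. Syt1, the main sensor of fast release, read 988.0 in the knockout and 1030.5 in the wild type, a log2 ratio of -0.06. Syt9, a sensor related to it, read 219.8 in the knockout and 230.3 in the wild type, a log2 ratio of -0.07. Syt2, the sensor of fast hindbrain and neuromuscular synapses, did not reach the filter, at 4.8 in the knockout and 9.0 in the wild type. Syt16, an atypical family member whose C2 domains are not thought to bind calcium, read 135.6 in the knockout and 218.4 in the wild type. Its log2 ratio of -0.67, 0.621 times the wild type, lay below the central 95% of genes of similar level, which ran from -0.45 to 0.47. It was the only one of the 57 genes outside the range for its level, taken in 4 equal bands, where 2.53% of all genes lay above and 2.53% below. Syt16 has 1 probe set, so no second reading of it exists on the arrays.

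Slower sensors and the remaining synaptotagmins fell on both sides. Syt7, a sensor of slow and facilitated release, read 105.4 in the knockout and 133.2 in the wild type, and all 3 of its passing probe sets were lower, between -0.37 and -0.19. Syt6 read 23.5 in the knockout and 31.4 in the wild type, near the filter, a log2 ratio of -0.35. Syt4, which lacks normal calcium binding in its first C2 domain and sits on peptide and growth factor vesicles, read 598.2 in the knockout and 470.3 in the wild type, a log2 ratio of 0.34. Its second probe set gave 0.07. Syt14 and Syt17, which are thought not to depend on calcium, had 0.29 and 0.28, and Syt13, Syt5 and Syt11 had 0.17, 0.18 and 0.06. Of 16 synaptotagmins measured, 11 passed, 6 of them above 0 and 5 below. Syt2, Syt3, Syt8, Syt10 and Syt12 did not pass.

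Proteins of the vesicle itself were level, all 12 past the filter lying between -0.23 and 0.30. Synaptophysin, Syp, an abundant integral membrane protein of the vesicle, read 257.4 in the knockout and 262.3 in the wild type, a log2 ratio of -0.03. Synaptoporin, Synpr, its relative in a subset of synapses, read 329.6 in the knockout and 298.5 in the wild type, a log2 ratio of 0.14. The transporter-like vesicle proteins Sv2a and Sv2b had opposite signs. Sv2a read 129.6 in the knockout and 152.7 in the wild type, and Sv2b, the form known from photoreceptors and bipolar cells, read 247.5 in the knockout and 239.4 in the wild type. Sv2c did not pass, at 4.0 in the knockout and 7.1 in the wild type.

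The synapsins, which tether vesicles into the reserve pool, lay just below 0. Syn1 read 130.7 in the knockout and 132.7 in the wild type, Syn2 read 27.4 in the knockout and 31.9 in the wild type, and Syn3 read 104.9 in the knockout and 115.0 in the wild type. None of the 3 ratios exceeded 0.19 in size. Rab3a, the small GTPase that recruits RIM to vesicles, read 823.8 in the knockout and 939.1 in the wild type, and both of its probe sets were lower, at -0.19 and -0.13. Rab3b read 91.0 in the knockout and 94.8 in the wild type, and Rab3c read 131.2 in the knockout and 148.2 in the wild type. The 3 passing probe sets of Rab3c ran from -0.30 to 0.24. Rab3d, the form of exocrine and other non-neuronal secretory cells, was the highest of this role at 0.30, although its 3 passing probe sets ran from -0.36 to 0.42. Snap91, or AP180, a clathrin adaptor that rebuilds vesicles after fusion and is no SNARE, read 573.4 in the knockout and 529.4 in the wild type. Syp, Syn1 and Vamp7 are the X-linked genes among those that passed, and their ratios were -0.03, -0.02 and -0.07.

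Piccolo was the gene furthest above 0. Pclo read 167.6 in the knockout and 112.3 in the wild type, a log2 ratio of 0.56, just short of the 1.5-fold line at 0.58. Its second passing probe set read 20.0 in the knockout and 13.7 in the wild type, below the filter, and is at least 1.08-fold higher. Bsn, the scaffold partner of piccolo at both conventional and ribbon synapses, read 58.9 in the knockout and 53.3 in the wild type, a log2 ratio of 0.13, and its second probe set gave 0.66 from 26.4 and 14.9. Because the wild-type value of that probe set was below the filter, it is at least 1.42-fold higher in the knockout. Rims1, the scaffold that binds Rab3 and primes vesicles, went the other way, at 209.4 in the knockout and 259.1 in the wild type, and both of its probe sets were lower, at -0.30 and -0.47. Rims2, the RIM most used at ribbon synapses, read 167.6 in the knockout and 165.7 in the wild type. The short forms Rims3 and Rims4 had -0.13 and -0.09. A second passing probe set of Rims3 gave 0.32, from 19.5 in the knockout and 14.6 in the wild type, below the filter, and is at least 1.05-fold higher. The scaffold genes therefore did not share a direction.

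Syntaxins of the Golgi and endosomes were all inside 1.5-fold. The 8 genes had ratios from -0.30 for Stx5a, the syntaxin of transport between endoplasmic reticulum and Golgi, to 0.17 for Stx18, which acts in return to the endoplasmic reticulum. Stx6 and Stx12, of the trans-Golgi network and endosomes, had -0.22 and -0.15. Stx7, Stx8 and Stx16 were between -0.05 and 0.03, and Stx17, the syntaxin of autophagosomes, had -0.09. The second probe set of Stx5a gave -0.01, the other 3 of Stx17 gave 0.15 to 0.34, and probe sets of Stx6 reached 0.12. The ratios of Stx5a, Stx17 and Stx6 were therefore not shared by all of their probe sets. Those of Stx18, 5 in number, all lay above 0, between 0.07 and 0.25. Both of Stx12 lay below 0, at -0.18 and -0.15, and Stx7 and Stx16 have 1 probe set each.

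When the genes were split by use, 21 passing genes of neuronal release had a median log2 ratio of -0.07 and 19 passing SNARE and Stxbp genes of general traffic had -0.01. Of the neuronal genes, 15 of 21 were below 0, and of the general genes 10 of 19, where 52.1% of all genes were. Over the 11 alternatives the neuronal median ranged from -0.13 to -0.06 and the general median from -0.05 to 0.11. The difference between them, neuronal minus general, was -0.06 and ranged from -0.16 to -0.02. Marker lists of retinal neurons had medians further from 0. Rod markers had a median of -0.86 over 7 passing genes, or -0.63 with values below the filter set to it, since 3 of them passed only by their wild-type value. Photoreceptor precursor markers had -0.26 over 7 genes, of which 6 were lower, bipolar cell markers -0.21 over 9, of which 6 were lower, and amacrine markers -0.14 over 10, of which 8 were lower. Ganglion cell markers had 0.20 over 14 genes, 13 of them higher, and horizontal cell markers 0.51 over 6, or 0.44 with the 1 value below the filter set to it. In summed level, the rod list stood at 1009.8 in the knockout and 1635.2 in the wild type, and the ganglion cell list at 8159.3 in the knockout and 6992.2 in the wild type. Their part in the values of the neuronal release genes was not tested.

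Probe sets of the same gene often disagreed, which limits every small ratio above. Of 38 genes with several passing probe sets, 19 (50%) had all of them on 1 side of 0, and the share was also 50% over all 5612 such genes of the array. The median span between the lowest and highest probe set of a gene was 0.31. Syt1 had the widest span. Its 4 probe sets gave -0.06, 0.18, 0.64 and 0.98 on the log2 ratio scale. The last of these read 49.1 in the knockout and 22.5 in the wild type, and the one at 0.64 read 324.8 and 206.4. Each but the brightest was therefore above 0. Syt17 had a second probe set at 1.04, read at 31.5 in the knockout and 12.8 in the wild type, which is at least 1.69-fold higher. Over all 124 passing probe sets of the genes, 4 were past 1.5-fold higher on the log2(intensity + 5) scale (3.23%, beside 5.01% of all passing probe sets with 1 gene) and 1 was past it lower (0.806%, beside 2.09%). Past 2-fold on that scale, 1 probe set, that of Syt17, was higher (0.806%, beside 1.02%) and 0 were lower (beside 0.377%). The wild-type values of the Bsn and Syt17 probe sets were below the filter, and by their bounds of 1.42-fold and 1.69-fold Bsn is not shown to be past 1.5-fold, nor Syt17 past 2-fold. The 4 belonged to Syt1, which had 2 of them, Syt17 and Bsn. For 10 of the 57 genes, among them Stx1a, Vamp3, Rab3a and Cplx2, the probe set that stands for the gene has an s or x suffix, so it may also match other transcripts.

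**Figure D3:**
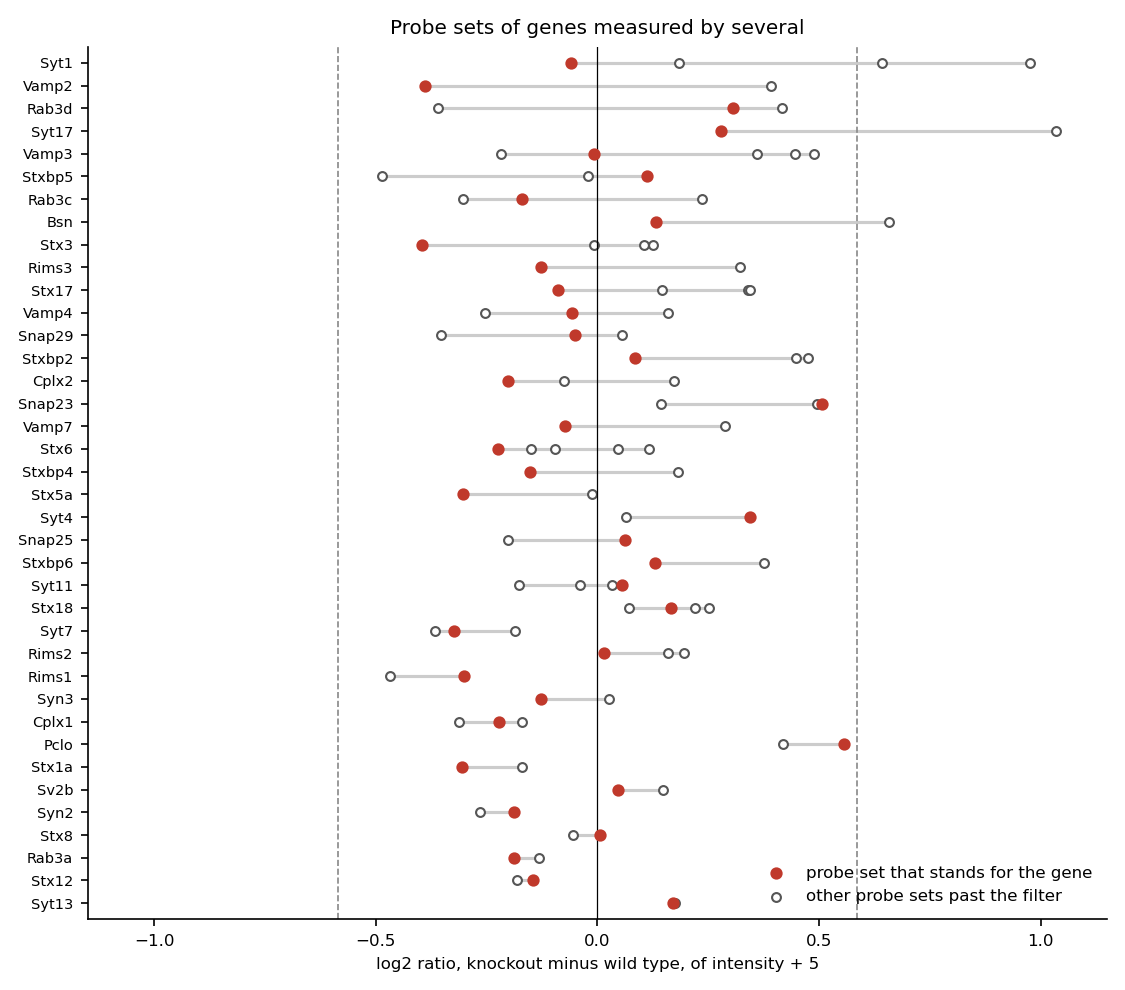
Log2 ratio, knockout minus wild type, of every passing probe set of the 38 genes with several, ordered by span; red dots stand for the gene, open dots are its other probe sets, and dashed lines mark 1.5-fold. Syt1 spans from -0.06 to 0.98 and Vamp2 from -0.39 to 0.39, while both probe sets of Rims1 lie below 0.

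The other genes of transmitter release and SNARE traffic, 81 of 84 past the filter, had a median of -0.05. On the log2(intensity + 5) scale, none was 2-fold apart. On that scale 2 (2.47%) were at least 1.5-fold higher, beside 3.81% of all genes, and 2 (2.47%) were at least 1.5-fold lower, beside 2.17%. By intensity alone, Ppfia3 was more than 2-fold lower, at 23.1 in the knockout and 50.1 in the wild type. With no value added to the intensities, 3 genes were at least 1.5-fold higher and 2 were at least 1.5-fold lower. Transmitter loading and the vesicle proton pump had a median of -0.11 over 17 genes. Slc18a2, the vesicular monoamine transporter, read 210.7 in the knockout and 128.5 in the wild type, a log2 ratio of 0.69, Svop, a vesicle protein related to SV2, read 31.2 and 52.0, a ratio of -0.65, and Slc32a1, which loads GABA and glycine, had -0.47. Priming and SNARE recycling genes had a median of -0.13 over 15 genes. Of these, Cadps2, a priming factor of dense-core vesicles, had 0.57, while Sncb, beta-synuclein, had -0.51 and Snapin, a SNAP-25 partner, had -0.42.

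Partners of the active zone and calcium channels had a median of -0.01 over 17 genes. Ppfia3, a liprin that organises release sites, read 23.1 in the knockout and 50.1 in the wild type, a ratio of -0.97, and Cacna1b, the pore of N-type calcium channels, read 92.2 and 56.2, a ratio of 0.67. Ppfia4, another liprin, had 0.42. Endocytosis genes had a median of -0.07 over 19 genes, with Itsn2 at 0.46, Dnm1, the dynamin that pinches off vesicles, at -0.42, and Ap2a2, a clathrin adaptor subunit, at -0.26. Organelle SNAREs outside the syntaxin and VAMP families had a median of -0.04 over 13 genes, with Bet1l at 0.43, Snap47 at -0.41 and Gosr1 at -0.40.

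**Figure D4:**
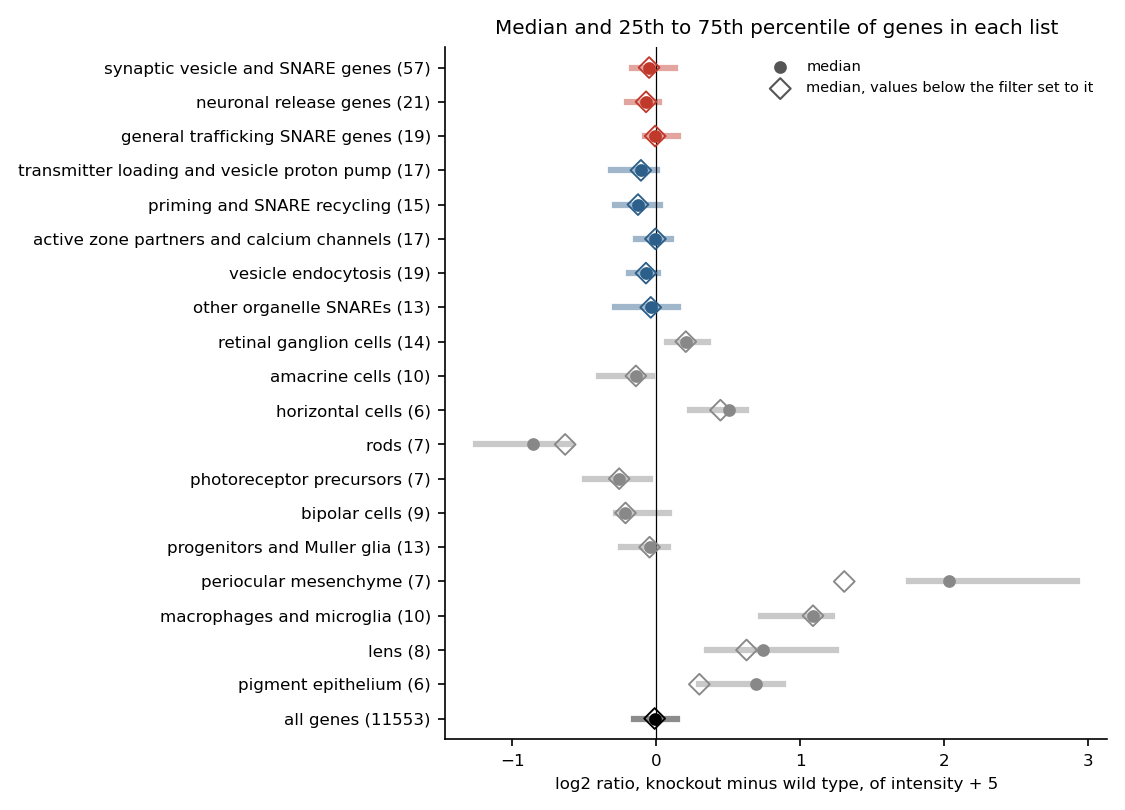
Median log2 ratio, knockout minus wild type (dots), and 25th to 75th percentile (bars) of the genes past the filter in each list, with their number in brackets; open diamonds are medians with values below the filter set to it; the set and its split are red, other release genes blue, cell type markers grey and all genes black. The red and blue medians lie between -0.13 and -0.01, and the marker diamonds between -0.63 for rods and 1.30 for periocular mesenchyme. The endothelium list is not drawn.

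The 11 genes that did not pass were Vamp1, Vamp5, Syt2, Syt3, Syt8, Syt10, Syt12, Stx11, Stx19, Cplx4 and Sv2c. Their brighter intensities ran from 2.3 to 16.0, and no probe set of theirs reached 18.6. The nearest gene above the filter was Rims4, at 20.6 in the knockout and 22.3 in the wild type. No fold is given for genes below the filter on both arrays, where the readings cannot be set apart from background.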

How the data were processed

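Per the labels' protocols, RNA from 1 retina of each genotype was extracted, amplified and biotin-labelled for hybridisation to an Affymetrix array. The authors deposited linear intensities, 1 per probe set and array, scaled alike as read from the values: the mean after leaving out 2% of the probe sets at each end was 99.7 on both arrays. The medians were not equal, at 19.7 in the knockout and 17.6 in the wild type. The summary software is not given in the sources used here, and detection calls were not used. The 64 control probe sets were left out.

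Genes were named from the platform annotation where it gives 1 symbol (34945 of 45037 probe sets; 932 have several and 9160 none), and all 68 genes of the set matched the RefSeq gene table through their Entrez number. A gene took the probe set with the highest mean intensity of both arrays. Log2 ratios are knockout minus wild type of log2(intensity + 5), where 5 is the pooled 25th percentile, with no further scaling, and they understate the change of dim genes. A gene passed if its brighter intensity reached the pooled median of 18.6. A single array of each genotype gives no spread and allows no test, so counts past 2-fold and 1.5-fold are given beside the same share of all genes. Precision is limited by the number of arrays.

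Both intensities are given for the neuronal release genes, for the 5 highest and the 5 lowest ratios and for every gene past 1.5-fold, and up to 3 genes are named per list of other release genes. The genes, lists and naming rule were chosen with earlier results of these data known. The alternatives changed scaling (centring, quantile, loess with a span of 0.3), the pseudocount, the filter, the probe sets used and the choice of probe set per gene. The calculation was tested on simulated arrays. Python 3.11.15, pandas 2.3.3, numpy 2.4.6, scipy 1.17.1 and statsmodels 0.14.6 were used.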

Additional observations from a re-analysis of the deposited data

How the results depend on the processing

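No paired analysis was possible because there is 1 array per genotype. Over the 11 alternatives, the median of the set ranged from -0.06 to 0.02 and that of all genes from -0.03 to 0.01. Of the 7 roles, 2 kept the sign of their median throughout, organelle syntaxins and vesicle proteins; plasma membrane SNAREs ranged from -0.12 to 0.14 and synaptotagmins from -0.06 to 0.17. Syt16 ranged from -0.70 to -0.62 and Pclo from 0.49 to 0.58. With no low-value filter, 2 genes were higher by 2-fold or more, 2 by 1.5-fold or more, and 2 were lower by 1.5-fold or more; the higher ones, Vamp5 and Syt12, lie below the filter on both arrays. With the median over probe sets, 1 gene was at least 1.5-fold higher, Syt17 at 0.66, and Syt1 had 0.41, Bsn 0.40 and Vamp2 0.00. Of 606 values of single genes over the alternatives, 12 moved by more than 0.26, the pooled SD between probe sets of a gene. Alternatives that changed only the filter left the value of a gene as it was, so many of the 606 could not move. Some genes changed sign under an alternative, among them Snap25, Stx3, Syt1, Vamp2 and Vamp3. Of the other release genes, 1 was higher and 1 lower by 1.5-fold when the pseudocount was the pooled median, 1 and 0 with the filter at the 75th percentile of 109.4, and 1 was higher with the median over probe sets. Without replicates, small differences cannot be told from none.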
